A study of Mus musculus with 7 samples.

Results

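Binding of FRA2, JUND and SOX2 was examined at 4 mouse loci, those of Htt, Bdnf, Rest and Ppargc1a, in 2 striatal cell lines that differ in the glutamine tract of huntingtin. The members were all listed binding events whose position lies, on the mm9 build, between 34.95 and 35.40 Mb of chromosome 5 for Htt, between 109.40 and 109.70 Mb of chromosome 2 for Bdnf, between 77.58 and 77.82 Mb of chromosome 5 for Rest and between 51.70 and 52.10 Mb of chromosome 5 for Ppargc1a. These windows held 139 of the 137595 events listed for the 3 proteins: 68 of 64579 for FRA2, 48 of 46583 for JUND and 23 of 26433 for SOX2. The windows were set by position alone, and every event inside them was kept.

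The cells are immortalised lines from embryonic striatum (day 14) of 129SvEv/CD1 background, used at fewer than 15 passages. STHdhQ7 (genotype HdhQ7/Q7, called Q7 here) carries the short tract of normal mouse huntingtin on both alleles, and STHdhQ111 (HdhQ111/Q111, called Q111) carries an expanded tract on both alleles. Both lines grew at 33 °C and were held at 39 °C for 2 days before the experiment to halt division. FRA2 and JUND were mapped in both lines and SOX2 in Q7, and each sample is a pool of 2 replicates, so every value below is 1 number per line with no spread between replicates. With 1 line per genotype, the genotype and other differences between the lines cannot be told apart. The files hold no expression values, so striatal markers were not checked.

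Huntingtin is a large scaffold protein, and an expanded glutamine tract in its first exon causes Huntington's disease. REST is a zinc-finger repressor that silences neuronal genes in other cells, and normal huntingtin is known to hold it in the cytoplasm of neurons. Bdnf, which encodes a neurotrophin that striatal neurons depend on, is a known target of REST, and its expression is reduced in Huntington's disease. Ppargc1a encodes PGC-1α, a coactivator of genes for mitochondria and energy use whose expression mutant huntingtin is known to repress. FRA2 and JUND are subunits of AP-1, a dimeric factor that binds the word TGACTCA and, less often, TGACGTCA, while SOX2 is a factor of neural progenitors.

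Promoter sequences are shown for 3 genes so that the words these proteins bind can be seen in them. They are RefSeq's on GRCm38.p6, run from 250 bases before to 50 after an annotated start, and read 5′ to 3′ on the gene's strand, with matched words in capitals. RefSeq's table held 9 such sequences for 3 of the 4 genes, 7 of them for Bdnf, whose gene has many starts. The search covered both strands for 2 AP-1 words, TGACTCA in its shorter form and TGACGTCA in its longer form. It also covered 2 cores that SOX factors bind, ACAATG for the first and, for the other, ACAAAG.
Htt, + strand: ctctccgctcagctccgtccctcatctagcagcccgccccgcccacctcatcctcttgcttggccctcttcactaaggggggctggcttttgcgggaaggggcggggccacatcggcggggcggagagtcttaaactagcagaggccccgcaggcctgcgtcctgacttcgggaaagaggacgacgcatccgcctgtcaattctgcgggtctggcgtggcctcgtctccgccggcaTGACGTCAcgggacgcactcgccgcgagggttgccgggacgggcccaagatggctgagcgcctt
Bdnf promoter 3, + strand: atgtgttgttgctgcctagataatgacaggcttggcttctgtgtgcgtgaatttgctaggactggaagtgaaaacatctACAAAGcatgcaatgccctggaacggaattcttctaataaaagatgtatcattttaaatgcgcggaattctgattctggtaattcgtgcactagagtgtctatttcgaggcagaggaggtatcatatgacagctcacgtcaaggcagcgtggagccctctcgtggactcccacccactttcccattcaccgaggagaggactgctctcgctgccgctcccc
Ppargc1a, - strand: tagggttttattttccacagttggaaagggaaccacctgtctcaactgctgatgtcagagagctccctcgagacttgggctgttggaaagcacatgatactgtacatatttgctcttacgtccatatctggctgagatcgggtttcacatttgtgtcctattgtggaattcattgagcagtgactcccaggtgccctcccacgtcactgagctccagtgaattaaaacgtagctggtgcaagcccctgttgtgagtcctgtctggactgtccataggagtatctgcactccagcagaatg
The Htt promoter held the word TGACGTCA once, beginning 14 bases before the start, a word found in 1.79% of the 32851 promoters in the table. None of the 9 sequences held TGACTCA, which 5.2% of promoters hold. Among the Bdnf promoters, numbered by the table's order, number 3 held ACAAAG, as do 18.7% of promoters. Number 4 held the first SOX core on its other strand, as do 12.6% of promoters. A match is a description of the letters and not of binding. The events are placed on mm9 and the promoters on GRCm38.p6, so which event, if any, falls in a promoter, exon or intron was not determined. By gene order in the GRCm38.p6 annotation, the protein-coding neighbours are Grk4 and Msantd1 for Htt, Kif18a and Lin7c for Bdnf, Spink2 and Noa1 for Rest, and Adgra3 and Dhx15 for Ppargc1a, and an event in a window need not belong to the gene the window is named for.

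Reads in events came to 3340554 for FRA2 in Q7 and 3498922 in Q111, to 1660158 and 1609483 for JUND, and to 1193914 for SOX2. An event was called different between the lines when its reads split unevenly by an exact binomial test (two-sided, Benjamini-Hochberg adjusted p below 0.05 over the whole table) and the fold was at least 2. Folds are relative to the median of events present in both lines, and their intervals (95%, Clopper-Pearson) cover counting error between 2 pooled libraries only. Where a pair of read numbers is given, Q7 comes first. Events marked present in 1 line alone are listed too, so their folds are partly set by how they came to be listed. Over whole tables, 23.6% of FRA2 events were called higher in Q111 and 21.7% higher in Q7, and 17.7% of JUND events were called higher in Q111 and 23.6% higher in Q7. In the 4 windows together, 28 of 68 FRA2 events (41.2%) were called higher in Q111 and 10 (14.7%) higher in Q7. Of the 48 JUND events, 14 (29.2%) were called higher in Q111 and 9 (18.8%) higher in Q7. The split moved with another scale. Shares of calls over the whole tables were not computed on that scale. The counts on it thus have no background beside them and do not show how the windows stand against the tables. Setting the lines level by their control reads puts the median log2 ratio of all events at -0.36 for FRA2 and -0.79 for JUND, and FRA2 then had 20 events called higher in Q111 and 17 higher in Q7, and JUND 7 and 17.

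**Figure D1:**
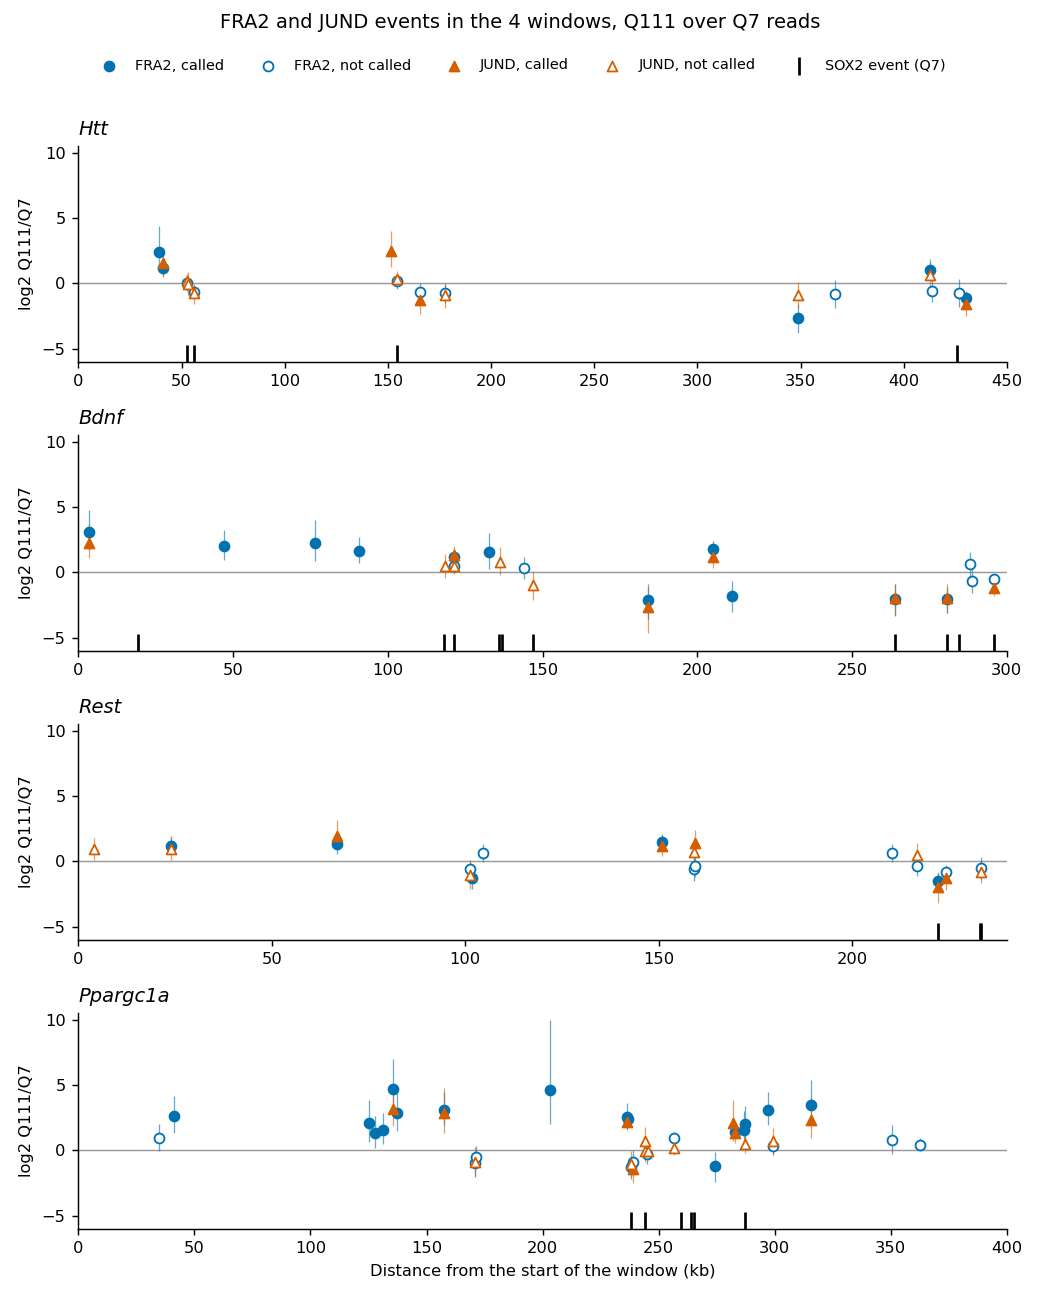
Log2 of Q111 over Q7 reads for each FRA2 event (circles) and JUND event (triangles) against its distance in kb from the start of the window, with 95% counting intervals; filled symbols are called different and black ticks mark SOX2 events in Q7. Events far above 0 stand mainly in the Ppargc1a window, where 15 of 26 FRA2 events were called higher in Q111, while the Htt and Rest windows hold 5 FRA2 calls each.

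The Ppargc1a window differed most between the lines. Its 26 FRA2 events summed to 546.0 reads in Q7 and 1310.6 in Q111, a ratio of 2.32 (2.10 to 2.57), and a mean of 21.0 and 50.4 reads per event. JUND had 15 events with 314.1 reads in Q7 and 554.6 in Q111, a ratio of 1.68 (1.46 to 1.93). The median log2 ratio was 1.45 over the FRA2 events and 0.70 over the JUND events, against 0.02 and -0.03 over all events of chromosome 5. FRA2 was called higher in Q111 at 15 events (57.7%) and higher in Q7 at 2, and JUND at 6 (40%) and 1. By the deposited marks, 15 of the 26 FRA2 events were present in Q111 alone, 4 in Q7 alone and 7 in both. Over the whole table these numbers were 16597, 17251 and 30731 of 64579 FRA2 events. With scaling by control reads the summed FRA2 log2 ratio was 0.85 in place of 1.22 and the JUND one 0.09 in place of 0.75. The FRA2 direction thus held, while the JUND sum came close to even and no direction is given for it under that scaling.

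The strongest FRA2 event called in this window, at position 51936580 of chromosome 5, had 35.1 reads in Q7 and 193.9 in Q111, 5.35-fold higher in Q111 (3.73 to 7.93, exact binomial test, adjusted p = 7.11e-25). JUND 25 bp away, at position 51936555, had 23 reads in Q7 of 134 over both lines, 4.59-fold higher in Q111 (2.91 to 7.54; exact binomial test, adjusted p = 1.48e-12). A second FRA2 event 200 bp from the first, at 51936380, had 10.9 and 67.1 reads, 5.96-fold higher in Q111. Both proteins thus had most of their reads at this site in the Q111 line, though it was occupied in Q7 as well. At 51982858 FRA2 had 47 and 127 reads (2.62-fold) and JUND at 51982863 had 22 and 57 (2.46-fold). FRA2 at 51956507, the event with the most reads of the window, had 79 and 160 reads, and its 1.96-fold gain in Q111 (1.49 to 2.60) passed the adjusted p (3.14e-06, exact binomial test) but not the fold limit, and JUND at 51956470 had 54 and 65 reads, 1.15-fold with an interval that includes 1.

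Other events of the Ppargc1a window were close to empty in Q7. FRA2 at 51835469 had 3 and 80 reads (Q7 and Q111), a 25.8-fold ratio whose interval runs from 8.53 to 128, and JUND at 51835458 had 5 and 47 reads, 8.94-fold (3.57 to 28.8). At 51857476 FRA2 had 7 and 61 reads (8.44-fold), and JUND at 51857477 had 4 and 30 (7.13-fold). At 52015656 FRA2 had 4 and 46 reads (11.1-fold), and JUND at 52015644 had 5 and 27 (5.14-fold). These 3 sites were marked present in Q111 alone for both proteins. They were listed through the line where their reads are high, so the large folds are partly set by the listing. With no JUND event within 100 bp, FRA2 at 51997183 had 7 and 62 reads (8.58-fold), and at 51903308 it had 1 and 26 reads, 25.2-fold with counting error that spans 4.14 to 1032. Between 51741156 and 51837098 FRA2 had 6 events, all called higher in Q111, of which 4 held few reads: 5 and 22 at 51825368, 9 and 24 at 51828003, 9 and 28 at 51831273, and 5 and 37 at 51837098. The event at 51741156 had 6 and 38 reads, 6.13-fold higher in Q111. Like the 3 sites above, these FRA2 events were marked present in Q111 alone.

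Not every Ppargc1a event moved towards Q111. FRA2 at 51938198, near the strongest gain, had 40 reads in Q7 and 17 in Q111, 2.43-fold higher in Q7 (1.35 to 4.57), and JUND at 51938904 had 30 and 12, 2.63-fold higher in Q7. A FRA2 event at 51974395 had 25 and 11 reads, 2.35-fold higher in Q7 (exact binomial test, adjusted p = 0.0345). These events higher in Q7 were marked present in Q7 alone. Sites with opposite differences therefore stood close to each other in this window. The pair of FRA2 events at 51986874 (6.7 and 20.9 reads) and 51987072 (8.3 and 34.1) were both called higher in Q111, at 3.02-fold and 3.98-fold, while JUND at 51987065 had 34.9 and 50.5 reads and was not called. JUND at 51982149 had 5 and 23 reads, 4.38-fold higher in Q111. That JUND event and the FRA2 pair at 51986874 and 51987072 were marked present in Q111 alone. Among the events with the most reads, FRA2 at 52062627 (55 and 77 reads) and 51999095 (39 and 50) and JUND at 51945233 (34 and 35) had intervals that include 1. The other 6 FRA2 and 5 JUND events were not called, with Q111 over Q7 ratios from 0.501 to 1.94 and from 0.493 to 1.68.

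**Figure D2:**
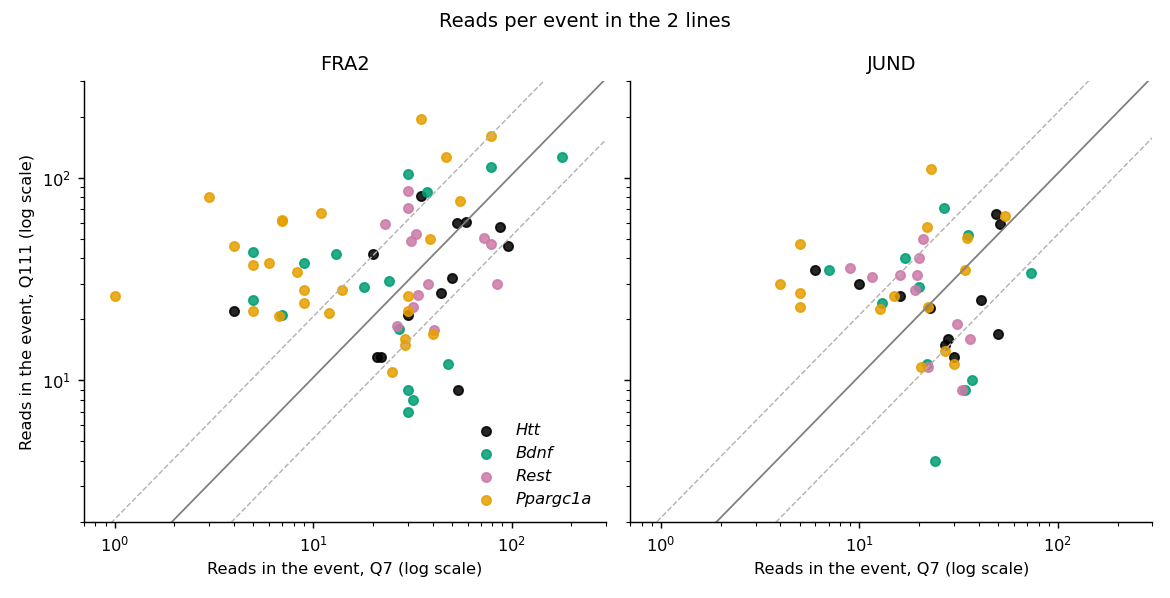
Reads in each event of the 4 windows in Q7 (horizontal, log scale) and Q111 (vertical, log scale), coloured by window, for FRA2 (left) and JUND (right); the solid line is the expected ratio and dashed lines are 2-fold from it. The events at the far left, with 1 to 9 Q7 reads, are mostly those of Ppargc1a, and the FRA2 event with 180 Q7 reads belongs to Bdnf.

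The Bdnf window had called events in both directions, and the summed reads hid them. The 16 FRA2 events summed to 574.0 reads in Q7 and 712.0 in Q111, a ratio of 1.20 (1.07 to 1.34), and JUND had 11 events with 309.0 and 320.1 reads, a ratio of 0.985 (0.840 to 1.16). FRA2 was called higher in Q111 at 7 events (43.8%) and higher in Q7 at 4 (25.0%), and JUND at 3 (27.3%) and 4 (36.4%). In position order, the 8 FRA2 events up to 109544004 all had a ratio above 1, with 6 called higher in Q111, and the 4 events called higher in Q7 all lay further on. This division of the window was seen in the values and not set beforehand. By the deposited marks, 6 of the 16 FRA2 events were present in Q111 alone, 5 in Q7 alone and 5 in both. The FRA2 ratio also rested on the window and the scaling: the summed log2 ratio of 0.26 became -0.01 with the window widened by 50 kb at each end, -0.10 with scaling by control reads, and 0.52 without the event at 109695915.

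FRA2 events higher in Q111 in the Bdnf window were led by that at 109605082 of chromosome 2, with 30 and 104 reads, 3.36-fold higher in Q111 (2.22 to 5.22; exact binomial test, adjusted p = 2.30e-09). JUND 8 bp away, at 109605074, had 17 and 40 reads, 2.24-fold higher (1.24 to 4.21). At 109403358 FRA2 had 5 and 43 reads (8.33-fold, 3.31 to 26.9), and JUND at 109403390 had 7 and 35 (4.76-fold). Both proteins were thus higher in Q111 at these sites. The events at 109403358 and 109403390, and JUND at 109605074, were marked present in Q111 alone, so their folds are partly set by the listing. FRA2 at 109447019 had 9 and 38 reads, at 109476298 5 and 25, at 109490732 13 and 42, and at 109532585 7 and 21, with folds of 4.09, 4.84, 3.13 and 2.91 and no JUND event within 100 bp. These FRA2 events without a JUND partner were likewise marked present in Q111 alone. One site held 2 close events for each protein. FRA2 had 37.3 and 85.3 reads at 109521392 (2.21-fold, called) and 78.7 and 112.7 at 109521498 (1.39-fold, not called), and JUND had 26.8 and 71.1 at 109521357 (2.52-fold, called) and 35.2 and 51.9 at 109521515 (1.40-fold, not called). With events within 250 bp merged, neither protein was called here (log2 ratios of 0.72 and 0.91).

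Events higher in Q7 lay at 109583936, 109611171, 109663926 and 109680602 for FRA2. At 109680602 FRA2 had 48 and 12 reads, 4.13-fold higher in Q7 (2.16 to 8.54, exact binomial test, adjusted p = 8.56e-06), and JUND at 109680599 had 37 and 10 (3.89-fold). At 109663926 FRA2 had 32 and 8 reads (4.13-fold), and JUND at 109663906 had 34 and 9 (3.97-fold). At 109583936 FRA2 had 30 and 7 reads (4.42-fold), and JUND at 109583927 had 24 and 4 (6.31-fold, 2.17 to 25.0). The same 3 sites were therefore called higher in Q7 for both proteins. FRA2 alone had the event at 109611171, with 30 and 9 reads (3.44-fold). All of these FRA2 and JUND events were marked present in Q7 alone. They were listed through the line where their reads are high, so their folds are partly set by the listing. The FRA2 event with the most reads in all 4 windows, at 109695915, had 180 reads in Q7 and 127 in Q111, 1.46-fold higher in Q7 (1.16 to 1.85) and under the fold limit. JUND at 109695919 had 73 and 34 reads, 2.26-fold higher in Q7 (1.48 to 3.50), and was called. The FRA2 and JUND ratios at this site were not distinguished (exact test of the 4 read numbers, p = 0.0851, adjusted p = 0.618). JUND at 109518490 had 20 and 29 reads and was not called, and the other 3 FRA2 and 2 JUND events were not called, with ratios from 0.646 to 1.56 and from 0.519 to 1.76.

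At the Htt window FRA2 was slightly lower in Q111. The 13 FRA2 events summed to 574.8 reads in Q7 and 483.5 in Q111, a ratio of 0.815 (0.719 to 0.920), and JUND had 11 events with 331.0 and 325.1 reads, a ratio of 0.934 (0.799 to 1.09). FRA2 was called higher in Q111 at 3 events (23.1%) and higher in Q7 at 2 (15.4%), and JUND at 2 and 2 (18.2% each), and 8 of the 13 FRA2 and 7 of the 11 JUND events were not called. The shares called higher in Q111 were near those of the whole tables, and those called higher in Q7 were lower. With 2 or 3 events behind each share, the calls do not set this window apart from the tables. Among the 8 FRA2 events not called, those at 35006060, 35115492 and 35127926 had ratio intervals wholly below 1, so equal binding is not shown.

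One site of the Htt window held all 3 proteins at nearly the same position. FRA2 at 35104357 of chromosome 5 had 53 reads in Q7 and 60 in Q111 (1.10-fold, 0.745 to 1.62), JUND at 35104360 had 49 and 66 (1.28-fold, 0.872 to 1.89), and SOX2 at 35104376 had 29 reads in Q7. Neither AP-1 subunit was called, and both were marked present in both lines. A second such site had FRA2 at 35002825 with 58.8 and 60.5 reads (0.997, 0.676 to 1.44), JUND at 35002838 with 51.4 and 59.3, and SOX2 at 35002825 with 34 reads. A JUND event beside it at 35003086, with 22.6 and 22.8 reads, was not called either. At 35006060 FRA2 had 87 and 57 reads, 1.58-fold higher in Q7 (1.12 to 2.24, exact binomial test, adjusted p = 0.0157) but under the fold limit, and JUND at 35006028 had 41 and 25. All 3 sites were among the 5 with the most reads of the window for both subunits, and none was called.

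The called Htt events lay at other sites. FRA2 at 34990855 had 35 and 81 reads (Q7 and Q111), 2.24-fold higher in Q111 (1.49 to 3.43, exact binomial test, adjusted p = 1.47e-04), and JUND at 34990864 had 10 and 30 (2.85-fold). FRA2 nearby at 34988933 had 4 and 22 reads (5.33-fold, 1.81 to 21.3). In the other direction, FRA2 at 35380341 had 96 and 46 reads, a Q111 over Q7 ratio of 0.464 (0.319 to 0.666), and JUND at 35380317 had 50 and 17, 3.09-fold higher in Q7 (1.75 to 5.72). The largest FRA2 difference toward Q7 in the 4 windows was at 35298573, with 54 reads in Q7 and 9 in Q111, 6.19-fold (3.03 to 14.3, exact binomial test, adjusted p = 2.37e-08), where JUND at 35298593 had 28 and 16 reads and was not called. Fisher's exact test of that contrast between FRA2 and JUND gave p = 0.0107 before and 0.310 after adjustment over all pairs. JUND alone had an event at 35101688, with 6 reads in Q7 and 35 in Q111 (5.55-fold, 2.31 to 16.1), and JUND at 35115507 had 30 and 13 reads, 2.43-fold higher in Q7, where FRA2 at 35115492 had 50 and 32 and was not called. FRA2 at 35362554 had 20 and 42 reads, 2.03-fold higher in Q111. Of the called Htt events, only FRA2 at 34990855 and 35380341 were marked present in both lines. The others, with that at 35298573 among them, were marked present only in the line where they were higher. Their folds are partly set by the listing. The events neither called nor among the 5 with the most reads had ratios from 0.572 to 0.678 for FRA2 (5 events) and from 0.528 to 1.55 for JUND (3 events).

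The Htt window also stood apart in its control reads. Control reads at its FRA2 events averaged 3.40 for Q7 and 9.50 for Q111, a ratio of 2.79, against 1.33 over the whole FRA2 table and 1.46 over chromosome 5. At its JUND events the means were 3.05 and 8.45 reads, a ratio of 2.76, against 1.66 over the whole JUND table and 1.84 over chromosome 5. Other windows of this length were not compared. Control reads were higher in Q111 at 13 of 13 FRA2 and 11 of 11 JUND events, against 57.5% and 65.6% of events in the whole tables. The 2 tables are not independent here, since at shared sites they list nearly the same control: 6.0 and 13.4 reads for FRA2 at 35104357 and 5.8 and 14 for JUND at 35104360. In the Bdnf, Rest and Ppargc1a windows the control ratio was 1.15, 1.32 and 1.24 for FRA2 and 1.41, 1.43 and 1.40 for JUND, below that of the whole table in each case. Subtracting control reads moved the summed FRA2 log2 ratio at Htt from -0.30 to -0.52. The part of the control in the Htt ratios was not tested further, and the library behind these columns is not named in the headers.

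**Figure D3:**
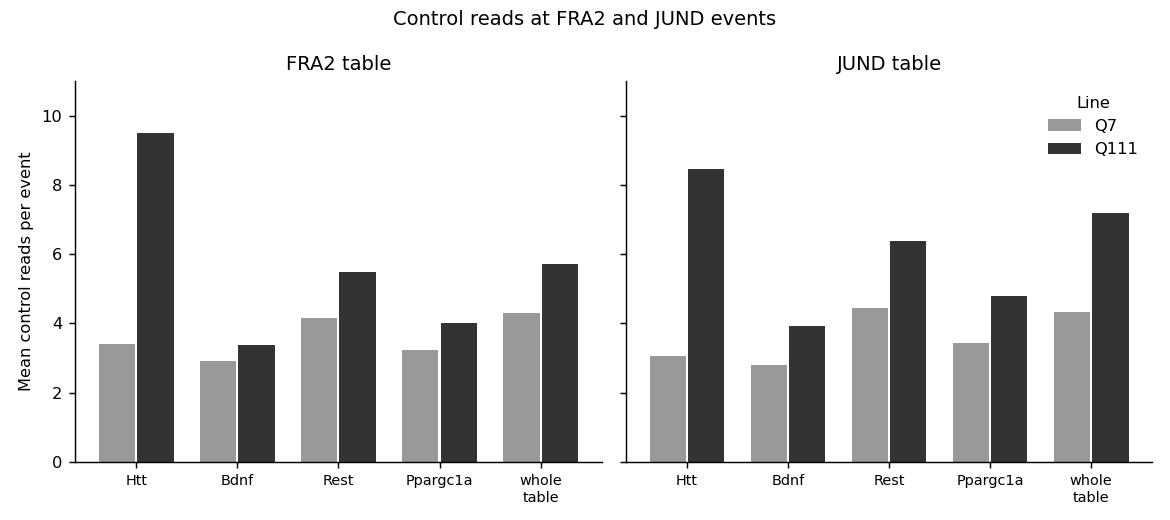
Mean control reads per event in Q7 (grey) and Q111 (black) at the events of each window and of the whole table, for the FRA2 table (left) and the JUND table (right). The Htt window has the highest Q111 bar in both panels, 9.50 and 8.45 reads, while its Q7 bars are below those of the whole table.

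At the Rest window the FRA2 sum was close to even, the JUND sum was higher in Q111, and single sites differed in both directions. The 13 FRA2 events summed to 553.0 reads in Q7 and 561.0 in Q111, a ratio of 0.983 (0.871 to 1.11), and JUND had 11 events with 238.5 and 308.0 reads, a ratio of 1.23 (1.03 to 1.46). FRA2 was called higher in Q111 at 3 events (23.1%) and higher in Q7 at 2 (15.4%), and JUND at 3 (27.3%) and 2 (18.2%). Over the whole tables these shares were 23.6% and 21.7% for FRA2, and 17.7% and 23.6% for JUND. With 2 or 3 events behind each share, the calls do not set this window apart from the tables. The JUND ratio turned with the scaling, from a summed log2 ratio of 0.30 to -0.37 with control reads as the scale. The FRA2 events were mostly present in both lines (9 of 13, 69.2%), and the JUND events mostly in 1 line (10 of 11). Over the whole tables, 47.6% of FRA2 and 37.1% of JUND events were present in both lines, so most JUND events anywhere are marked in 1 line.

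Of the Rest sites with FRA2 and JUND within 100 bp, 3 were called for both proteins, 1 for FRA2 alone and 2 for JUND alone. FRA2 at 77730795 of chromosome 5 had 30 and 86 reads (Q7 and Q111), 2.78-fold higher (1.81 to 4.36, exact binomial test, adjusted p = 2.17e-06), and JUND at 77730748 had 21 and 50 (2.26-fold). FRA2 at 77646978 had 23 and 59 reads (2.48-fold), and JUND at 77646968 had 9 and 36 (3.80-fold). FRA2 at 77603918 had 30 and 71 reads (2.29-fold), and JUND at 77603910 had 16 and 33, a 1.96-fold ratio that was not called. JUND at 77584123, with 20 and 40 reads, was 1.90-fold higher with an adjusted p of 0.0421 (exact binomial test) and fell short of the fold limit. Toward Q7, FRA2 at 77802088 had 84 and 30 reads, 2.89-fold (1.89 to 4.54, exact binomial test, adjusted p = 1.00e-06), and JUND at 77802082 had 33 and 9 (3.85-fold). FRA2 at 77681669 had 40.7 and 17.8 reads, 2.36-fold higher in Q7, and its neighbour 340 bp away at 77681329 had 72.3 and 50.2 and was not called. At 77804229 FRA2 had 79 and 47 reads, 1.74-fold higher in Q7 and under the fold limit. JUND at 77804242 had 36 and 16 (2.37-fold, called). FRA2 at 77681669 and JUND at 77802082 and 77804242 were marked present in Q7 alone, and JUND at 77646968 in Q111 alone. Their folds are partly set by the listing.

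The site at 77739433 in the Rest window was the one place in the 4 windows where FRA2 and JUND differed in sign with a call for one of them. FRA2 there had 33.6 and 26.5 reads, and JUND at 77739440 had 11.6 and 32.2, 2.64-fold higher in Q111 (1.27 to 5.41). The FRA2 event was marked present in Q7 alone and the JUND event in Q111 alone. The neighbouring JUND event at 77739235 had 19.6 and 33.2 reads, and FRA2 at 77739218 had 26.4 and 18.5. The exact test of the difference between FRA2 and JUND gave p = 0.00487 at the first pair and 0.0429 at the second, and neither passed after adjustment (0.251 and 0.503). Control reads at 77739433 were 2.5 in Q7 and 13.4 in Q111. With events within 250 bp merged, the JUND call at 77739440 was lost (log2 ratio of 0.98). JUND at 77813421 had 31 and 19 reads and was not called, and the 6 FRA2 and 3 JUND events neither called nor among the 5 with the most reads had ratios from 0.679 to 1.56 and from 0.495 to 1.96.

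**Figure D4:**
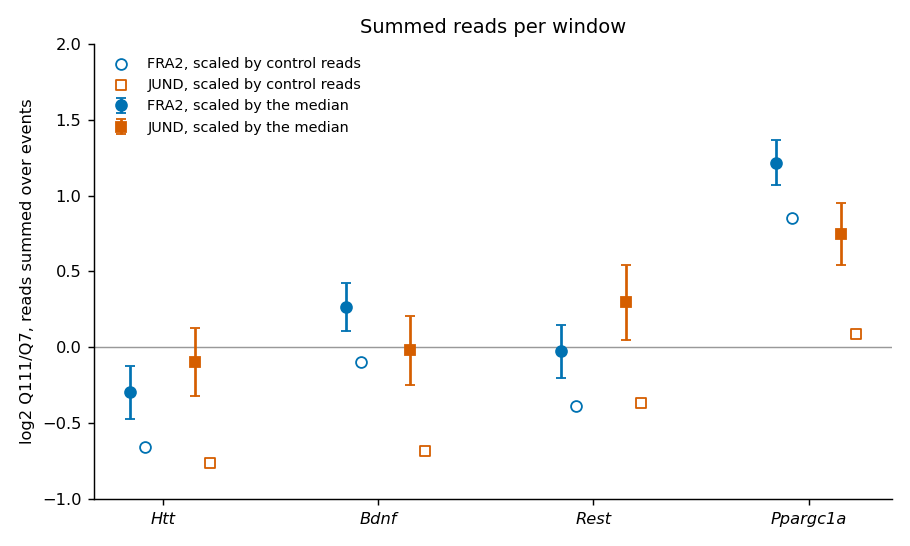
Log2 of Q111 over Q7 reads summed over the events of each window for FRA2 (blue circles) and JUND (orange squares); filled symbols use the median scaling with 95% counting intervals, open symbols the scaling by control reads. Only the Ppargc1a values lie above 0 under both scalings, for both proteins, though the JUND value scaled by control reads, 0.0855, is close to 0.

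Across the windows, FRA2 and JUND were compared at the 38 places where an event of each was the other's nearest within 100 bp. Their median distance was 13 bp. The sign of the ratio was the same at 34 of the 38 pairs: 11 of 11 at Ppargc1a, 8 of 8 at Bdnf, 8 of 9 at Htt and 7 of 10 at Rest. Both proteins were called in the same direction at 16 pairs, in opposite directions at 0, and 1 of the 2 alone was called at 10. These counts of signs and calls were not made over all pairs, so the likeness is not shown to be particular to these windows. Fisher's exact test, comparing the ratios of both proteins, passed adjustment at 0 of the 38 pairs (5 at an unadjusted p below 0.05, smallest adjusted p 0.251), against 0.262% of all 35176 pairs. With JUND reads of 28 to 134 per event over both lines, moderate differences between the proteins were not detectable at this depth.

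**Figure D5:**
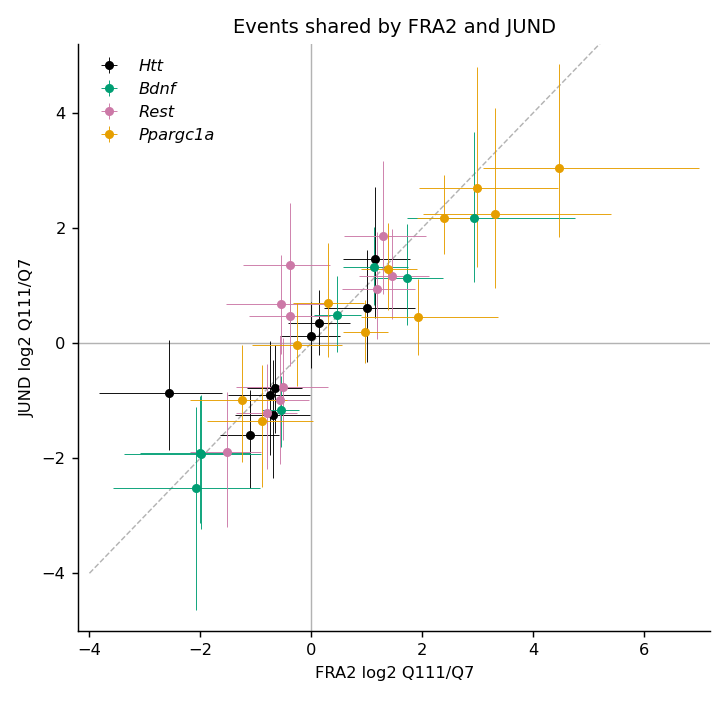
JUND against FRA2 log2 ratio (Q111 over Q7, with 0.5 reads added to each value) at the 38 shared events, coloured by window, with 95% counting intervals as bars; the dashed line marks equal ratios. Points follow the line, and the 3 points above 0 for JUND and below 0 for FRA2 by the widest margin belong to Rest.

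SOX2, mapped in Q7 alone, had 10 events at Bdnf, 6 at Ppargc1a, 4 at Htt and 3 at Rest. The largest was at 109663831 in the Bdnf window, with 124 reads, a number that 3.92% of all SOX2 events reach. The authors' deposited table gives a fold over control of 38.3 there. FRA2 lay 95 bp and JUND 75 bp from it, both called higher in Q7. The next in that window were 63 reads at 109695926, 11 bp from FRA2 and 7 bp from the JUND event called higher in Q7, 45 reads at 109521403, 41 at 109680595 and 35 at 109518243. At Htt, SOX2 had 95 reads at 35006035 (7.22% of events have at least as many), 25 bp from FRA2 and 7 bp from JUND, and 22 reads at 35375993, where the nearest FRA2 event was 783 bp away. The other 2 SOX2 events of the Htt window are those at 35002825 and 35104376 given above. Sites without SOX2 were uncalled too, among them the pair of FRA2 at 35127926 and JUND at 35127930. At Rest the values were 39.8 reads at 77813320, 25.2 at 77812937 and 21 at 77802094, the last 6 bp from the FRA2 event called higher in Q7.

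SOX2 events at Ppargc1a were partly apart from AP-1. Its events held 37 reads at 51938264, 36 at 51943956, 31 at 51959697, 30 at 51964064, 28 at 51965286 and 21 at 51987052, against a median of 33 over the table. Of these 6 events 3 had neither FRA2 nor JUND within 1 kb. The event at 51938264 lay 66 bp from the FRA2 event called higher in Q7, and that at 51987052 lay 20 bp from one called higher in Q111. None lay within 1 kb of the strong FRA2 gains at 51936580, 51835469 or 52015656. SOX2 was not mapped in Q111, and in Q7 FRA2 itself had only 3 and 4 reads at 51835469 and 52015656, so SOX2 at these sites in Q111 is unknown. Over the 4 windows, 14 of 23 SOX2 events (60.9%) had a FRA2 or JUND event within 100 bp, against 69.9% over the table.

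The AP-1 events beside SOX2 in these windows were few. Of 12 FRA2 events within 100 bp of a SOX2 event, 2 were called higher in Q111 and 4 higher in Q7, and of the other 56, 26 and 6. Over the whole FRA2 table these shares are 3.54% and 34.6% beside SOX2, and 29.8% and 17.8% elsewhere. Of 13 JUND events beside SOX2, 1 was called higher in Q111 and 4 higher in Q7, and of the other 35, 13 and 5. Over the whole JUND table the shares are 3.62% and 35.2% beside SOX2, and 25.3% and 17.3% elsewhere, so the windows split in the same direction as the tables. The SOX2 positions come from Q7 alone, so events beside SOX2 are picked by a signal in 1 of the lines compared. No conclusion about SOX2 and the calls is drawn from this split. Control reads at the SOX2 events averaged 3.94, against 4.31 over the table.

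FRA2 and JUND events were denser in all 4 windows than over the listed span, and SOX2 events in the windows other than Htt. FRA2 events stood at 65.0 per Mb at Ppargc1a, 54.2 at Rest, 53.3 at Bdnf and 28.9 at Htt, against 25.2 per Mb over the span of listed events. Among all adjoining windows of 400 kb that tile that span, 8.69% held as many FRA2 events as the Ppargc1a window or more, and for the Htt window, of 450 kb, the share was 39.0%. For FRA2 at Rest and Bdnf the share was 16.6% and 16.5%, each among windows of its length. JUND events stood at 45.8 per Mb at Rest, 37.5 at Ppargc1a, 36.7 at Bdnf and 24.4 at Htt, against 18.2. In that order, 13.1%, 17.7%, 18.9% and 32.4% of windows of the same length held as many JUND events or more. SOX2 events stood at 33.3 per Mb at Bdnf, where 8.47% of windows of 300 kb held as many or more. They stood at 15.0 at Ppargc1a, 12.5 at Rest and 8.89 at Htt, against 10.3. The shares for these windows were 28.8%, 33.2% and 43.1%. The events were not large: FRA2 events in the 4 windows had a median of 57.8 reads over both lines and JUND events 45.2, against 64.0 and 54.0 over the tables.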

How the data were processed

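The deposited tables list binding events on mm9 for FRA2 and JUND (both lines) and SOX2 (Q7). Each of the 7 labelled samples pools 2 replicates, per the labels, and groups were taken from sample titles. Bowtie 0.12.7 and mm9 are named in the submitters' processing notes, and GPS in the name of each deposited file; its settings: not given in the sources used here. IP columns hold expected counts of reads per event, unscaled, as deposited (78.0% to 89.6% whole), rounded for tests. Control columns hold control reads that the authors scaled by an unstated factor from a library the headers do not name, treated here as a score. The deposited ratio of IP to control (Fold), the deposited p-value and q-value as −log10, and a present mark complete them; 10 further value columns were not used.

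For each event, scipy 1.17.1 (Python 3.11.15) tested the Q111 share of reads against the share given by the median log2 ratio of events present in both lines (0.046 for FRA2, 0.072 for JUND), with Benjamini-Hochberg adjustment over all events of the table, all of which held at least 20 reads. The call fold and log2 ratios of single events carry a pseudocount of 0.5 reads; printed folds and summed ratios do not. Event pairs were tested by Fisher's exact test on unscaled reads. PCR reads are not independent molecules, so intervals cover counting error only.

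Named events are all called events plus, per window and protein, the 5 with the most reads (all where there were at most 6). Windows, lists and tests were chosen with earlier results of these data known. A planned list of huntingtin, REST and PGC-1α pathway genes was not run, because no mm9 annotation was used here. Alternatives changed scaling, fold and read minima, dispersion, merging, control subtraction, q-value limit, windows and pair distance.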

Additional observations from a re-analysis of the deposited data

How the results depend on the processing

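No paired analysis was possible because each sample is 1 pool of replicates, so no replicate could be left out either. Shares of calls over the whole tables were computed for the main setting only, so call counts under the alternatives have no background beside them. No called event of the windows changed sign under an alternative, but most alternatives could not have changed it. A call needs a 2-fold difference, and the largest rescaling shifted log2 ratios by -0.66 (JUND, control reads). Limits on fold, reads and q-value and the assumed dispersion leave the direction of an event as it is. Window changes were not followed per event. The unchanged signs are therefore no measure of stability. Scaling by control reads gave 17 FRA2 events higher in Q7, and 7 JUND events higher in Q111 and 17 in Q7; summed log2 ratios became -0.66 (Htt), -0.10 (Bdnf), -0.39 (Rest) and 0.85 (Ppargc1a) for FRA2, and -0.76, -0.68, -0.37 and 0.0855 for JUND. With an assumed dispersion of 0.05, 25 FRA2 calls (6 higher in Q7) and 13 JUND calls (8 higher in Q111, 5 in Q7) were made, since the wider spread raises every p. Control subtraction gave 15 JUND events higher in Q7 and summed FRA2 log2 ratios of -0.52 (Htt) and 1.38 (Ppargc1a). A deposited q of at least 5, which tests fewer events, gave 15 JUND calls (9 higher in Q111), 12 SOX2 events, and at Ppargc1a 1.57 (FRA2) and 1.01 (JUND). Widening the windows by 50 kb gave 19 FRA2 and 16 JUND events higher in Q7, and log2 ratios of -0.59 (Htt) and -0.0091 (Bdnf) for FRA2 and -0.46 and -0.33 for JUND. Narrowing by 50 kb gave 6 FRA2 events higher in Q7, 15 JUND calls (3 higher in Q7), 14 SOX2 events, and log2 ratios of -0.56 (Htt), 0.73 (Bdnf) and 0.21 (Rest) for FRA2 and 0.48 (Bdnf) and 0.89 (Rest) for JUND. Chosen after seeing the data were merging of events within 250 bp, whose lost calls stand beside the events, events present in both lines (FRA2 Ppargc1a 1.01; JUND Htt 0.25 and Rest 1.18, from 2 events and 1 event) and leaving out the event with the most reads (FRA2 Bdnf 0.52, JUND Ppargc1a 0.54). Where not stated, the cause was not tested. The 3 sums whose intervals include an even ratio, FRA2 at Rest and JUND at Htt and Bdnf, took the other sign under several settings, for example 0.0207 (FRA2 Rest, unscaled) and 0.0188 and 0.0956 (JUND Htt and Bdnf, scaled by read totals), so no direction is given for them. Of the summary values recomputed, 41 moved beyond the counting interval of a sum or by over 1.5-fold for a count, 3 reversed, and 117 stayed within these limits, sign changes of those 3 sums included. At 26 to 307 reads per event, differences well under 2-fold were not detectable at most sites.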
